A study of Mus musculus with 6 samples.

Results

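Genes flanking *Wt1* on mouse chromosome 2 were followed in coronary endothelial cells (ECs) from embryos that did or did not carry the floxed *Wt1* allele. The members were a given list of 41 protein-coding genes lying between about 100 and 110 Mb (GRCm39), without *Wt1* itself. By symbol 40 of the 41 had a row in the table of 55416 genes, all but *Dcdc1*, and they spanned positions 101508519 to 109844609. Of these 40, 35 had at least 10 counts in at least 2 libraries and were tested, out of 16296 genes tested in all.

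The mGFP+ cells were sorted from the ventricles of E15.5 hearts, with 3 libraries per genotype. ControlΔEC embryos were Pdgfb-CreERT2/+, Wt1+/+ and R26 mTmG/+, and Wt1KOΔEC embryos were Pdgfb-CreERT2/+, Wt1 loxP/loxP and R26 mTmG/+. Both carried the Cre, which the *Pdgfb* promoter drives in endothelium, and the membrane reporter, and both came from mothers given oral tamoxifen at 75 mg per kg over E11.5 to E13.5. The labels call the libraries biological replicates and the embryos littermates, and do not say how many embryos a library pooled.

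A floxed allele is inherited together with the chromosome around it, because recombination between nearby loci is rare. Embryos homozygous for the floxed allele are therefore expected to carry both copies of the linked stretch from the chromosome on which the allele was made, and Wt1+/+ littermates the other version. The strain in which the allele was made is not given in the sources used here. In these libraries any effect of the linked stretch and of the loss of *Wt1* cannot be told apart, since all Wt1KOΔEC embryos were homozygous for the floxed allele. How far the stretch differed between the genotypes was not examined. *Wt1* encodes a zinc finger transcription factor that is best known in kidney, gonad and epicardium and is also present in forming coronary vessels.

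*Wt1* (ENSMUSG00000016458.16, chromosome 2, 104956625 to 105003961, plus strand) was at 145, 109.5 and 148.6 CPM (read counts relative to the library total, on the usual CPM scale, adjusted by TMM) in ControlΔEC replicates 1, 2 and 3. It was at 13.99, 18.39 and 21.28 CPM in Wt1KOΔEC replicates 1, 2 and 3. All 3 Wt1KOΔEC libraries lay below all 3 ControlΔEC libraries, and the log2 fold change, as Wt1KOΔEC over ControlΔEC, was -2.91 ± 0.22 (standard error) at an adjusted p of 0.00319 in edgeR. Total counts per library ran from 26037324 to 44779020, so 3 counts corresponded to 0.0608 to 0.119 CPM. The 7 endothelial markers listed summed to between 4570 and 5820 CPM in ControlΔEC and between 4830 and 5520 CPM in Wt1KOΔEC. Correlations between libraries, over the genes tested on the log scale, were lowest for ControlΔEC replicate 2, from 0.939 to 0.946.

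Because *Cd59a* and *Hipk3* had the lowest p-values of the flanking genes, the stretches around their annotated starts are shown. Each is 300 bases, from 250 bases before to 50 bases after the start in RefSeq (table of GRCm38.p6), found by exact match on GRCm39, with the 50 bases from the start in capitals. The first lies at chr2:103925896-103926195 on the plus strand and the second at chr2:104324785-104325084 on the minus strand, and both are read 5′ to 3′.
Cd59a: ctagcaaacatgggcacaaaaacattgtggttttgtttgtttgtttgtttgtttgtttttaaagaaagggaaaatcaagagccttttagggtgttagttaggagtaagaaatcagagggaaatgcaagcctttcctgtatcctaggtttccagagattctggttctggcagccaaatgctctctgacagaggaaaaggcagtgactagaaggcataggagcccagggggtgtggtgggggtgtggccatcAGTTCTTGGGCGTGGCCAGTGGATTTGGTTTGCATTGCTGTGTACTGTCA
Hipk3: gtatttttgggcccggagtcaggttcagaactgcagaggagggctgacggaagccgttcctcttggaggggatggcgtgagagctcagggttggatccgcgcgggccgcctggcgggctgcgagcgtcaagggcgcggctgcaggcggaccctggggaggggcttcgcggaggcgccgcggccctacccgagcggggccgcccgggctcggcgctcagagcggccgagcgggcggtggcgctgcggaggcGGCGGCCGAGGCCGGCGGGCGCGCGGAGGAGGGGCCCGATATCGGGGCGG

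WT1 and the related EGR factors are known to bind GC-rich sites, and 2 such words, GCGGGGGCG and GCGTGGGCG, were searched on both strands of these stretches. Neither word occurred in the stretches of *Cd59a* and *Hipk3*. Over all 32851 promoters in the table, GCGGGGGCG occurred in 2.91% and GCGTGGGCG in 0.612%. The table had promoters for 34 of the members, and not for *Fbxo3*, *Fjx1*, *Lmo2*, *Ehf*, *Mettl15*, *Rcn1* and *Dcdc1*. Of the 34, *Ldlrad3*, *Qser1* and *Kcna4* held the first word and *Tcp11l1* the second. Counted by promoter, as for the whole table, these were 3 and 1 of the 48 promoters of the 34 members. Their matches are shown with the bases around them, the word or its reverse complement in capitals, to set beside the changes of the 4 genes given later. *Ldlrad3* lies at chr2:102016756-102016799, the *Qser1* matches at chr2:104647175-104647223 and chr2:104647102-104647150, and *Tcp11l1* at chr2:104542527-104542575, all on the minus strand, and *Kcna4* at chr2:107120913-107120961 on the plus strand. A match is a run of letters and not a measured site.
Ldlrad3: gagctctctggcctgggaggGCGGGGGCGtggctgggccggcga
Qser1, first match: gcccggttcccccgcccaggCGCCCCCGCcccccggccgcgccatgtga
Qser1, second match: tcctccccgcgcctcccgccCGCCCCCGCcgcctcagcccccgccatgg
Tcp11l1: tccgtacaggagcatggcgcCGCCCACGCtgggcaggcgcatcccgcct
Kcna4: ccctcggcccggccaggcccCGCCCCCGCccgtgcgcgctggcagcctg

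A DEG was a gene with an adjusted p under 0.05 over all genes tested and an absolute log2 fold change above 0.58. By edgeR's quasi-likelihood F test 0 of the 35 flanking genes met both limits. Over all genes, 12 of 16296 were DEGs (0.0736%). At an unadjusted p under 0.05, 6 of the 35 passed (17.1%), beside 13.1% of all genes tested. *Traf6*, *Commd9* and *Nat10* were the 3 with higher values in Wt1KOΔEC, beside 5.96% of all genes, and *Cd59a*, *Hipk3* and *Cd44* the 3 with lower values, beside 7.12%. All libraries of a genotype lay on one side of all libraries of the other in 6 of the 35 (17.1%), beside 19.3% of all genes tested. Wt1KOΔEC was the higher genotype in 2 of the 6 (all genes, 10.4%) and the lower one in 4 (all genes, 8.95%). Both shares of the list, 17.1%, lay near those of all genes, on either side of them.

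DESeq2 at its default settings, the tool named in the study's methods, called 1 of the 36 flanking genes to which it gave an adjusted p, *Cd59a*, beside 4.67% of the genes so tested. Without the fold limit it called 2, *Cd59a* and *Hipk3*, beside 5.21%, and of the 39 to which it gave a p at all 7 had an unadjusted p under 0.05, beside 11.4%. Run after the count filter it again called *Cd59a* alone, beside 3.85%. By limma-voom none of the 35 was a DEG (background 0.0491%), and 6 had an unadjusted p under 0.05, beside 13.5% of all genes.

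The flanking genes as a list were centred near no difference. Their median log2 fold change was 0.03 (-0.15 without ControlΔEC replicate 2), with 19 above and 16 below 0, and the median over all genes tested was -0.03. The median size of the change, without its sign, was 0.24 for the flanking genes, 0.40 for all genes and 0.37 for the 1194 genes tested on chromosome 2 outside the window. A fold change past the limit of 0.58 was fitted for 8 of the 35 (22.9%), 36.3% of all genes and 34.3% of genes on chromosome 2 outside the window. These are descriptions, and the members were not tested as a set.

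**Figure D1:**
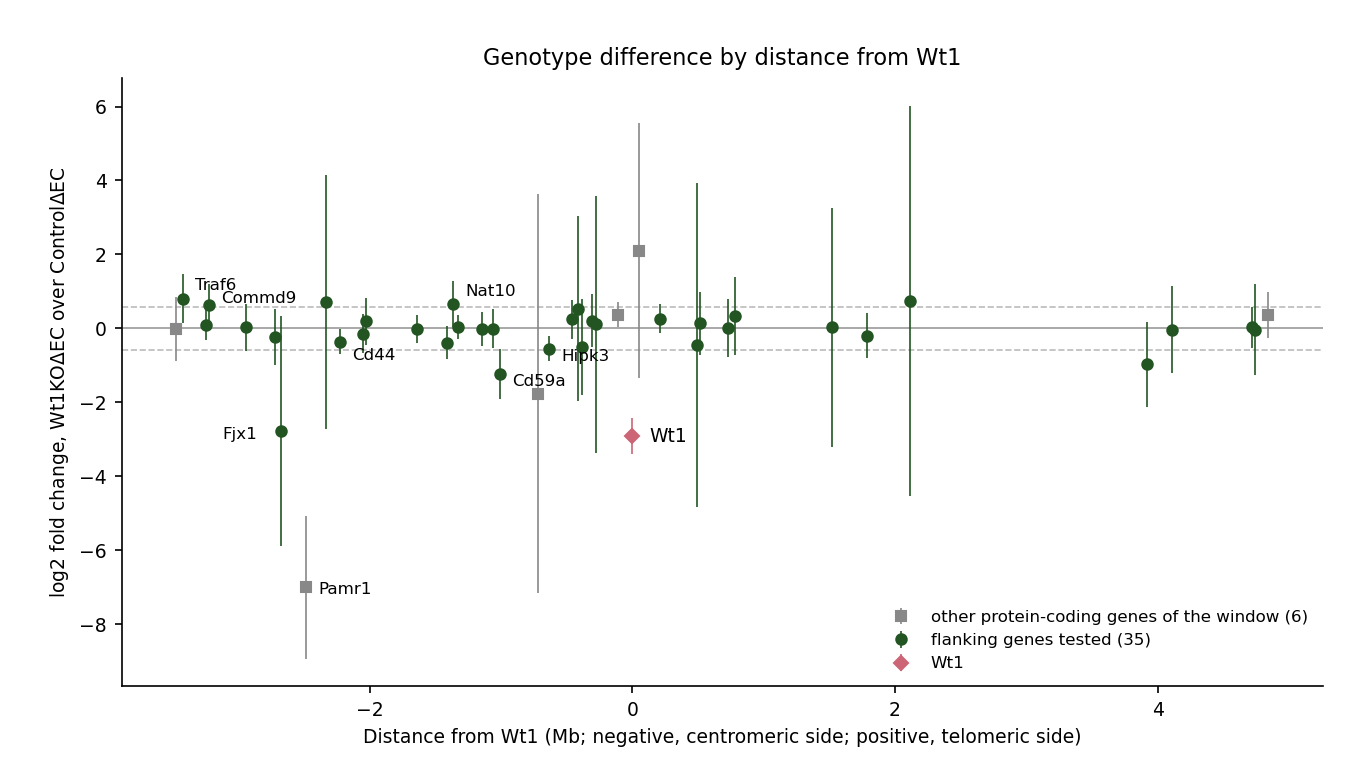
Log2 fold change (Wt1KOΔEC over ControlΔEC, edgeR) against distance from Wt1 in Mb for the 35 flanking genes tested (circles), 6 other protein-coding genes of the window (squares) and Wt1 (diamond), with 95% intervals and dashed lines at the fold limit of 0.58. Most flanking genes lie near 0, *Cd59a* lies at -1.23, and the gene furthest from 0 is *Pamr1* at -7.00, which is not on the list.

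Among the members that act in signalling and protein turnover, 9 were listed and tested, and 3 passed at an unadjusted p of 0.05 in edgeR, beside 13.1% of all genes. *Hipk3*, a homeodomain-interacting protein kinase, was at 92.83, 86.24 and 101.4 CPM in ControlΔEC replicates 1, 2 and 3 and at 60.43, 63.22 and 68.47 CPM in Wt1KOΔEC replicates 1, 2 and 3. Every Wt1KOΔEC library lay below every ControlΔEC library, and the libraries of each genotype lay close together. The log2 fold change came to -0.55 (standard error 0.15, adjusted p = 0.217 in edgeR and 0.0107 in DESeq2 at its defaults). *Hipk3* is 0.631 Mb from *Wt1*, on the centromeric side (104256814 to 104325565, minus strand). Of its 51-base words, the length of a read, 6.26% also occurred in other transcripts, nearly all in the antisense lncRNA *Gm35606*. Whether reads were counted by strand is not given in the sources used here.

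*Traf6*, a ubiquitin ligase that relays signals from interleukin 1 and Toll-like receptors, was at 20.11, 14.67 and 32.75 CPM in ControlΔEC and at 38.81, 43.46 and 35.40 CPM in Wt1KOΔEC. The genotypes did not overlap, but ControlΔEC replicate 3 lay close to the lowest Wt1KOΔEC library. The log2 fold change came to 0.80 (standard error 0.30, adjusted p = 0.302 in edgeR). *Commd9*, a member of the COMMD family that takes part in endosomal sorting, was at 16.93, 19.92 and 12.93 CPM in ControlΔEC and at 30.09, 24.51 and 22.59 CPM in Wt1KOΔEC. Again the genotypes did not overlap (log2 fold change 0.63, standard error 0.25, adjusted p = 0.335 in edgeR). *Traf6* and *Commd9* lie 3.423 and 3.225 Mb from *Wt1*, among the most centromeric members.

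The other signalling and turnover members had no unadjusted p under 0.05 in edgeR. *Abtb2*, an ankyrin repeat and BTB domain protein, came nearest, with a log2 fold change of -0.39. *Trim44*, a tripartite motif protein, had one of -0.24. *Prr5l*, a partner of the mTORC2 kinase complex, had one of 0.10, and *Ldlrad3*, a membrane protein with LDL receptor class A domains and the first of the genes with a GCGGGGGCG match, one of 0.03. *Fbxo3*, the substrate receptor of a ubiquitin ligase, differed least of all, at -2.53e-03. *Depdc7*, a DEP domain protein, was 1 of the 3 tested members nearest to *Wt1* on the centromeric side, at 3.329, 3.992 and 10.50 CPM in ControlΔEC and 2.917, 5.671 and 4.074 CPM in Wt1KOΔEC. ControlΔEC replicate 3 stood above the rest, and without it the log2 fold change of -0.49 turned to 0.21.

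Of the 10 cell surface and secreted members 8 were tested, and 2 had an unadjusted p under 0.05 in edgeR (all genes, 13.1%). *Cd59a*, a membrane-anchored inhibitor of the terminal complement complex, was at 21.94, 46.42 and 30.22 CPM in ControlΔEC and at 14.20, 15.38 and 12.50 CPM in Wt1KOΔEC. ControlΔEC replicate 2 was the highest, and the genotypes did not overlap. The log2 fold change was -1.23 (standard error 0.30, 95% interval -1.902 to -0.55), with an adjusted p of 0.183 in edgeR and 0.0074 in DESeq2 at its defaults. It ranged from -1.45 without ControlΔEC replicate 1 to -0.89 without ControlΔEC replicate 2.

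*Cd59a* (103926132 to 103947029, plus strand, 1.010 Mb from *Wt1*) has a neighbouring paralogue, *Cd59b*, and 357 of the 6831 51-base words of *Cd59a* also occur in *Cd59b*, so reads could be divided between them. *Cd59b* was not tested, with 7, 8 and 3 counts in ControlΔEC and 4, 4 and 1 counts in Wt1KOΔEC. Summed, the pair was at 33.00 ± 12.5 CPM in ControlΔEC and 14.1 ± 1.49 CPM in Wt1KOΔEC (SD, n = 3 libraries each). The sums did not overlap between the genotypes, and the exact two-sided permutation p was 0.1, the smallest that 3 libraries against 3 allow. *Cd59a* alone averaged 32.86 CPM in ControlΔEC and 14.03 CPM in Wt1KOΔEC, with the same permutation p. *Cd59b* thus added almost nothing, and the sum was no separate test.

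Markers of other cell types moved with the genotypes too. The 5 macrophage markers, all tested, summed to between 174 and 501 CPM in ControlΔEC and between 94.1 and 149 CPM in Wt1KOΔEC. None was at 0 in all libraries, and 4 passed an unadjusted p of 0.05 in edgeR, beside 13.1% of all genes tested. Like *Cd59a*, *Csf1r*, *Adgre1*, *Ptprc* and *Cd68* were highest in ControlΔEC replicate 2, with *Csf1r* and *Adgre1* at 327.2 and 92.23 CPM. *Fcgr1* was highest in ControlΔEC replicate 1, at 8.467 CPM. Within ControlΔEC, *Cd59a* was lowest in replicate 1, and the 5 macrophage markers were lowest in replicate 3. The 5 mural cell markers summed to between 175 and 363 CPM in ControlΔEC and between 139 and 152 CPM in Wt1KOΔEC, and the 5 erythroid markers to between 3550 and 7410 CPM and between 2280 and 4060 CPM. The 5 fibroblast markers summed to between 299 and 458 CPM in ControlΔEC and between 512 and 679 CPM in Wt1KOΔEC, the 5 epicardial markers to between 4.16 and 10.7 CPM and between 12.5 and 40.7 CPM. Their part in the values of the flanking genes was not tested, and in bulk RNA fewer cells of a type and less RNA per cell cannot be told apart.

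*Cd44*, the receptor for hyaluronan, was at 108.4, 109.0 and 126.1 CPM in ControlΔEC and at 98.16, 86.69 and 83.86 CPM in Wt1KOΔEC. All Wt1KOΔEC libraries lay below all ControlΔEC libraries, by a small margin. The log2 fold change came to -0.35 (standard error 0.15, adjusted p = 0.365 in edgeR). *Fjx1*, a relative of the four-jointed kinase of flies, did not overlap between the genotypes either, but it was at 0.660 CPM on average, and its log2 fold change of -2.77 had a 95% interval from -5.88 to 0.35.

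The remaining surface and secreted members were low or level. *Prrg4*, a membrane protein with a Gla domain and the tested member nearest to *Wt1* on the centromeric side, was at 2.793, 0 and 1.040 CPM in ControlΔEC and 0.5373, 2.106 and 1.503 CPM in Wt1KOΔEC. Its libraries overlapped, and its log2 fold change of 0.11 had a 95% interval from -3.36 to 3.58. *Slc1a2*, a glutamate transporter, and *Kcna4*, a voltage-gated potassium channel and the last of the genes with a GCGGGGGCG match, had log2 fold changes of 0.71 and 0.75 from means of 1.04 and 0.277 CPM. The first ran from -0.70 without Wt1KOΔEC replicate 1 to 2.28 without ControlΔEC replicate 1, and the second from 0.16 without ControlΔEC replicate 2 to 6.76 without ControlΔEC replicate 3. *Lin7c*, a scaffold of cell junctions, and *Lgr4*, a receptor for R-spondins, were at 0.03 and -0.04. *Bdnf*, a neurotrophin, was not tested, with 0, 0 and 6 counts in ControlΔEC and 1, 6 and 30 counts in Wt1KOΔEC.

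**Figure D2:**
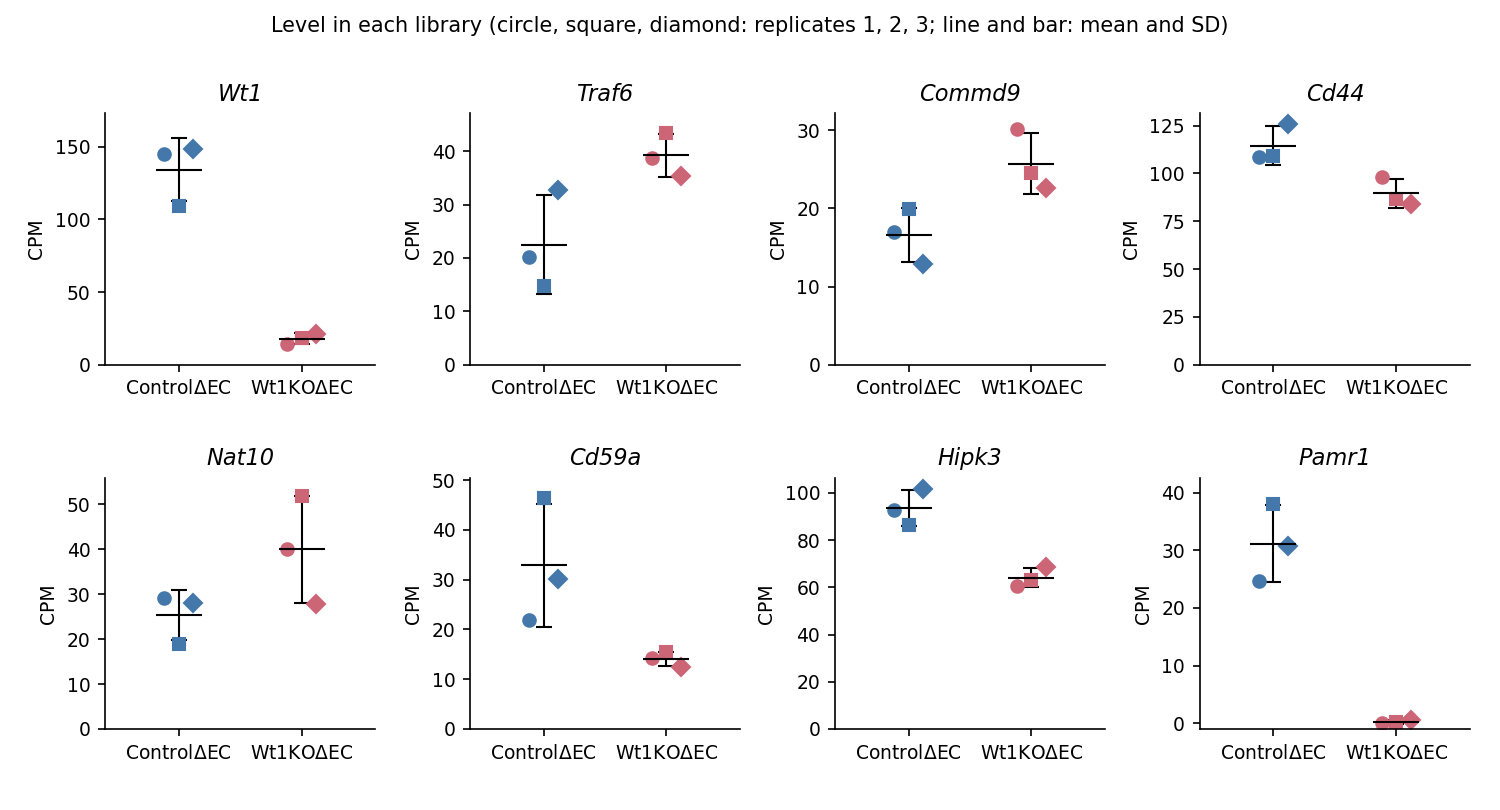
CPM in each library (linear axes) of *Wt1*, the 6 flanking genes with an unadjusted p under 0.05 and *Pamr1*, with the mean and SD of 3 libraries per genotype. The genotypes overlap for *Nat10* and for none of the other 7 genes.

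Among the 11 members that act in transcription, RNA handling and translation, 9 were tested and 1 had an unadjusted p under 0.05 in edgeR, beside 13.1% over all genes. *Nat10*, an RNA cytidine acetyltransferase, was at 29.07, 18.86 and 28.04 CPM in ControlΔEC and at 39.96, 51.85 and 27.89 CPM in Wt1KOΔEC. Wt1KOΔEC replicate 3 lay within the ControlΔEC range, so the genotypes overlapped. The log2 fold change came to 0.66 (standard error 0.28, adjusted p = 0.363 in edgeR).

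*Lmo2*, a partner of transcription factors of the blood and endothelial lineages, is the member best known from endothelium. It was at 42.47, 46.32 and 32.02 CPM in ControlΔEC and 41.83, 40.82 and 37.18 CPM in Wt1KOΔEC. The Wt1KOΔEC libraries lay inside the ControlΔEC range, and the log2 fold change of -0.01 had a 95% interval from -0.46 to 0.44. *Caprin1*, an RNA-binding protein of stress granules, was the highest member, at 464.5 ± 26.02 CPM in ControlΔEC and 480.4 ± 48.4 CPM in Wt1KOΔEC (SD, n = 3 libraries each), and its 95% interval ran from -0.28 to 0.37.

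*Qser1*, whose protein is known to limit DNA methylation, was at 15.42, 30.23 and 40.27 CPM in ControlΔEC and 35.18, 31.72 and 32.32 CPM in Wt1KOΔEC. ControlΔEC libraries lay on both sides of Wt1KOΔEC, and the log2 fold change of 0.21 turned to -0.09 without ControlΔEC replicate 1. *Cstf3*, a factor of messenger RNA cleavage before polyadenylation, had a log2 fold change of 0.24, and *Arl14ep*, an effector protein of a small GTPase, one of -0.19.

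*Pax6* and *Elp4*, the next tested members on the telomeric side after *Rcn1*, overlap on opposite strands over 3393 exonic bases. *Pax6*, a factor of eye and pancreas development, was at 0, 0.9928 and 0.06932 CPM in ControlΔEC and 0.07675, 0.1965 and 0.5142 CPM in Wt1KOΔEC. Its log2 fold change of -0.44 had a 95% interval from -4.82 to 3.93 and turned positive by limma-voom. *Elp4*, a subunit of the Elongator complex, was at 12.56, 6.362 and 15.60 CPM in ControlΔEC and 14.22, 9.910 and 13.69 CPM in Wt1KOΔEC. The genotypes overlapped, and the log2 fold change of 0.13 turned to -0.16 without ControlΔEC replicate 2. Of the 51-base words of *Pax6* 19.7% and of *Elp4* 24.2% occurred in other transcripts, mostly in each other, so their counts are uncertain if strand was not used.

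*Dnajc24*, a factor of diphthamide synthesis, had a log2 fold change of 0.33, and it overlaps *Immp1l* on the opposite strand over 1657 exonic bases. The epithelial ETS factors *Ehf* and *Elf5* did not exceed the floor of 3 counts in any library: *Ehf* had 0 counts throughout, and *Elf5* had 1 count, in ControlΔEC replicate 1.

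The 5 members of metabolism and mitochondria were all tested, and none had an unadjusted p under 0.05 in edgeR. *Cat*, the peroxide-degrading enzyme catalase, was at 104.0, 110.6 and 81.55 CPM in ControlΔEC and 106.0, 88.54 and 98.89 CPM in Wt1KOΔEC. The Wt1KOΔEC libraries lay inside the ControlΔEC range, with a log2 fold change of -0.01 and a 95% interval from -0.40 to 0.37. *Pdhx*, a component of the pyruvate dehydrogenase complex, *Apip*, an enzyme of methionine salvage, and *Immp1l*, a peptidase of the inner mitochondrial membrane, had log2 fold changes of -0.14, 0.19 and 0.01. *Mettl15*, a methyltransferase of mitochondrial ribosomal RNA, had one of -0.97 with a 95% interval from -2.12 to 0.18, and an unadjusted p under 0.05 by limma-voom.

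The last 5 members with a row held proteins of the endoplasmic reticulum, the cytoskeleton and others, and 4 of them were tested. *Rcn1*, a calcium-binding protein of the endoplasmic reticulum and the nearest tested member on the telomeric side at 0.212 Mb, was at 103.2, 92.86 and 120.9 CPM in ControlΔEC and 120.1, 112.4 and 147.4 CPM in Wt1KOΔEC. The libraries overlapped, and the log2 fold change came to 0.26 (standard error 0.17, adjusted p = 0.600 in edgeR). *Kif18a*, a mitotic kinesin, *Mpped2*, a metallophosphoesterase, and *Tcp11l1*, the gene with the GCGTGGGCG match, had log2 fold changes of -0.04, 0.03 and 0.54. With single libraries left out these ran from -0.47 to 0.58, from -0.56 to 1.36 and from 9.14e-03 to 3.27, the last of them without ControlΔEC replicate 2, which at 6.119 CPM stood above the other ControlΔEC libraries of *Tcp11l1*. *Ccdc73* was not tested, with 4, 3 and 0 counts in ControlΔEC and 8, 3 and 3 counts in Wt1KOΔEC, and it shares 2084 exonic bases with *Eif3m* on the opposite strand.

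Compared per kb of exonic length, *Caprin1* had the highest mean level in ControlΔEC, at 42.1 CPM per kb, followed by *Cat* at 26.9, *Lmo2* at 17.3, *Cd44* at 16.9 and *Rcn1* at 14.3 CPM per kb. In Wt1KOΔEC the same 5 genes were at 43.6, 26.6, 17.1, 13.2 and 17.1 CPM per kb. How far a difference could be seen depended on the level. The 95% interval lay within 2-fold in either direction for 18 of the 35, all of them averaging 10 CPM or more, and within the fold limit for 6. Among the 11 members under 10 CPM, 4 had a fold change past the limit, and none had an unadjusted p under 0.05 in edgeR, whereas *Fjx1* did in DESeq2 and *Mettl15* by limma-voom. In 10 members the ControlΔEC libraries differed among themselves by more than 3-fold, and of these *Kif18a* alone (1 gene) averaged 10 CPM or more.

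**Figure D3:**
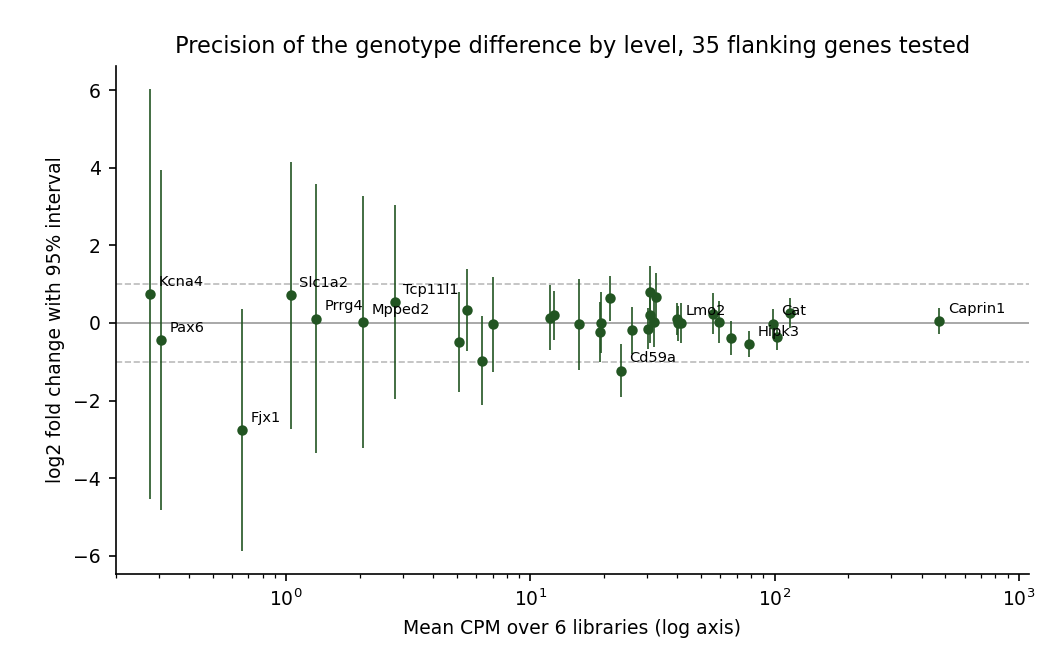
Log2 fold change with its 95% interval against mean CPM over 6 libraries (log axis) for the 35 flanking genes tested, with dashed lines at a 2-fold difference in either direction. The intervals widen below 10 CPM, where *Fjx1*, *Pax6*, *Kcna4* and *Slc1a2* lie.

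Seen by distance, the 6 flanking genes with an unadjusted p under 0.05 in edgeR lay on the centromeric side, where 23 were tested, 1 of 6 within 1 Mb of *Wt1*, 2 of 7 between 1 and 2 Mb and 3 of 10 between 2 and 3.5 Mb. On the telomeric side it was 0 of 12, although limma-voom, and edgeR without Wt1KOΔEC replicate 3, put *Mettl15* of that side under 0.05. Over all genes tested the share was 13.1%, and the difference between the sides was not tested. In 10 Mb bins along chromosome 2, the bin from 100 to 110 Mb held 43 protein-coding genes tested, *Wt1* and non-members included, of which 9 had an unadjusted p under 0.05 (20.9%). The other bins ran from 6.06 to 27.8%, and 3 of them lay above the bin of *Wt1*, those from 80 to 90, 110 to 120 and 130 to 140 Mb. By edgeR, which called 0.0736% of all genes tested, the bin of *Wt1* held 2 DEGs, *Wt1* and *Pamr1*, and the other bins 0. By DESeq2 at its defaults the bin of *Wt1* held 3 DEGs (6.98%), and the other bins ran from 0 to 19.4%.

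**Figure D4:**
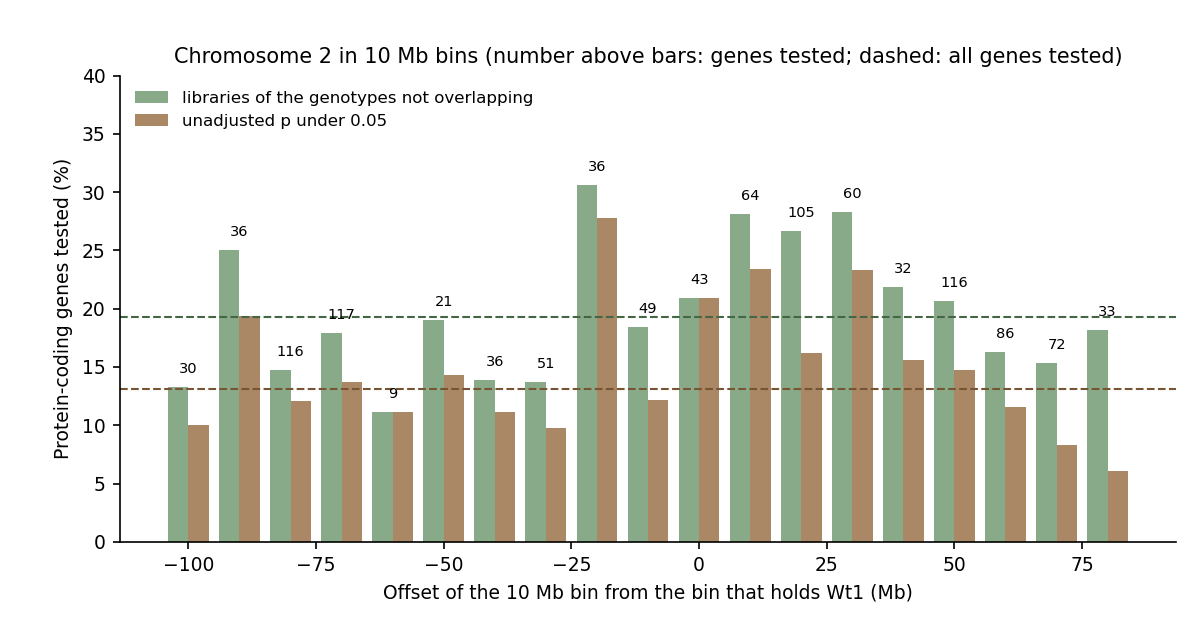
Share of protein-coding genes tested, in percent, in each 10 Mb bin of chromosome 2, placed by its offset from the bin that holds *Wt1*, for genes whose genotypes did not overlap (green) and genes with an unadjusted p under 0.05 (brown), with the number of genes above and dashed lines for all genes tested. The bin of *Wt1*, at offset 0, has 20.9% by both measures, within the range of the other bins.

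The window also held 11 other protein-coding genes that were not on the list, and 6 of them were tested. *Pamr1*, a secreted protein with a peptidase domain, was the only DEG among the 6 by edgeR, and it is given here because of its values. It was at 24.62, 38.03 and 30.81 CPM in ControlΔEC and at 0, 0.1684 and 0.6329 CPM in Wt1KOΔEC. It had 889 to 1877 counts in the ControlΔEC libraries and 0, 6 and 16 counts in Wt1KOΔEC replicates 1, 2 and 3, so every Wt1KOΔEC library lay far below every ControlΔEC library. The log2 fold change came to -7.00 (standard error 0.86, adjusted p = 0.0441 in edgeR and 2.93e-05 in DESeq2 at its defaults). Over 15 alternatives in edgeR, DESeq2 or limma-voom the adjusted p ranged from 2.37e-08 to 0.256. Among single libraries left out, the call was lost without ControlΔEC replicate 1 (adjusted p = 0.114), ControlΔEC replicate 3 (0.0506), Wt1KOΔEC replicate 2 (0.256) and Wt1KOΔEC replicate 3 (0.0606), all from edgeR. *Pamr1* (102380060 to 102473386) lies 2.483 Mb from *Wt1*, between *Fjx1* and *Slc1a2*, and shares none of its 7726 51-base words with other transcripts.

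*Eif3m*, a subunit of a translation initiation complex and 0.109 Mb from *Wt1*, was at 158.5, 145.2 and 171.8 CPM in ControlΔEC and 197.8, 192.0 and 227.2 CPM in Wt1KOΔEC. The genotypes did not overlap, with a log2 fold change of 0.38 (standard error 0.15, adjusted p = 0.339 in edgeR).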

How the data were processed

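The authors sorted the cells, made Smart-seq2 libraries, sequenced them as pairs of 51 bases without molecular identifiers, mapped reads with STAR 2.7.8a and quantified genes with RSEM 1.3.0; the methods name GRCm39 and GENCODE vM27, whereas the submitters' processing notes list GRCm38. The deposited values are RSEM expected counts per gene, all of them whole numbers, so no rounding was needed. Floors from counts cover counting error only, and the 95% intervals of fold changes, from edgeR's fit, carry the spread between libraries.

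A gene was tested if 2 or more libraries held 10 or more counts of it, and Wt1KOΔEC was compared with ControlΔEC by TMM normalization and edgeR 4.0.16 quasi-likelihood F tests (R 4.3.3), adjusted by Benjamini-Hochberg over the 16296 genes kept. The standard error was taken as the absolute log2 fold change divided by √F. CPM used all counts and TMM factors. DESeq2 1.42.0, limma-voom (limma 3.58.1), other normalizations and filters, a replicate block and single libraries left out were alternatives. DESeq2 was run at its defaults, without the count filter, as planned; a run after the filter was chosen later, with the data seen. The fits were tested on simulated data.

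Positions are from GENCODE vM39 on GRCm39, matched for 16238 of the genes tested. The members and marker lists were chosen with earlier results of these data known. The genes named in full were *Wt1*; members called by edgeR or DESeq2, with an unadjusted p under 0.05, or without overlap at a mean of at least 10 CPM; the 3 tested members nearest to *Wt1* on each side; members at or under 3 counts in every library; and other genes of the window called by either tool. Further values of *Lmo2*, *Cat*, *Caprin1*, *Fjx1*, *Mettl15*, *Slc1a2*, *Kcna4*, *Tcp11l1*, *Mpped2*, *Kif18a*, *Eif3m* and the members not tested were added after their values were seen. Same-numbered libraries were not paired: their deviations from the group means correlated at 0.0512, 0.0645 and 0.0445. The labels name no batch. The library codes in the column headers begin with AT for all ControlΔEC libraries and with AU for all Wt1KOΔEC libraries. What the codes mark is not said, and it cannot be told apart from genotype.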

Additional observations from a re-analysis of the deposited data

How the results depend on the processing

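Of the flanking genes, 1 was a DEG, *Cd59a*, with DESeq2 at its defaults, with DESeq2 after the count filter and with edgeR without a filter, and 0 were in the remaining alternatives, the 6 that left out single libraries among them. The 2 DESeq2 runs made the same call among them, with 759 and 599 DEGs over all genes, and gave *Cd59a* adjusted p-values of 0.0074 and 0.0123 and *Hipk3* 0.0107 and 0.0312. The number with an unadjusted p under 0.05 ran from 2 (without Wt1KOΔEC replicate 2) to 6 with single libraries left out, and was 3 without Wt1KOΔEC replicate 1. *Cd59a* and *Hipk3* passed that threshold in all 16 alternatives, with highest p-values of 0.0137 and 0.0284 from the models across all genes in edgeR, DESeq2 or limma. With library size only, which moved the median log2 fold change of all genes by -0.15, *Traf6*, *Commd9* and *Nat10* did not pass, and 4 members did. For the fits with single libraries left out, library size only or no filter, the shares of all genes passing are not given. Their counts of members passing therefore cannot be set against a background. The number without overlap ran from 7 to 12 with single libraries left out. It was 7 of 35 without ControlΔEC replicate 1 (all genes, 31.7%) and 7 of 35 without Wt1KOΔEC replicate 1 (26.7%). It was 8 of 34 without ControlΔEC replicate 2 (32%) and 8 of 35 without Wt1KOΔEC replicate 2 (28.2%). It was 9 of 34 without Wt1KOΔEC replicate 3 (28.2%) and 12 of 35 without ControlΔEC replicate 3 (33.7%). The median log2 fold change ran from -0.15 (without ControlΔEC replicate 2) to 0.081 with single libraries left out. *Pamr1* was not a DEG, leaving 0 of the window's other genes, with limma-voom, with at least 10 counts in every library (where it was not tested), or with the replicate block, and single libraries left out gave 0 to 1.

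As each library was left out in turn, 16 of the 35 members tested had log2 fold changes of both signs. The share of all genes that did so is not given. Of the 16, 0 had an unadjusted p under 0.05 in edgeR with all libraries, but these fits share their libraries, so this is no separate check. Among the members named in full, the directions that turned were those of *Prrg4* (from -0.47 without ControlΔEC replicate 2 to 1.42), *Qser1* (from -0.090 without ControlΔEC replicate 1 to 0.54), *Depdc7* (from -0.78 to 0.21 without ControlΔEC replicate 3), *Pax6* (0.94 by limma-voom and 1.54 with the replicate block) and *Elp4* (-9.51e-03 with library size only and from -0.16 without ControlΔEC replicate 2 to 0.42); the cause was not tested. With the replicate block, 0 flanking genes were DEGs and 4 had an unadjusted p under 0.05, beside 0.0307% and 11.9% of all genes. The labels do not say that a number marks a shared litter. By deviations from the group means, each ControlΔEC library correlated best with the Wt1KOΔEC library of its own number, but only at 0.0445 to 0.0645.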
